A study of Mus musculus with 2 samples.

Results

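The mouse genome holds 2 gene copies each of mir-128, mir-129 and mir-138, microRNAs known from neurons. The 6 genes Mir128-1, Mir128-2, Mir129-1, Mir129-2, Mir138-1 and Mir138-2 were taken by name from 1973 miRNA genes in the tables, and all 6 were found. They were measured in midbrain of B6NCrl mouse embryos at embryonic day 16.5, in 2 libraries of small RNA with inserts below 30 nt. The libraries are biological replicates of 1 group, healthy tissue pooled from male and female embryos, with no treatment or mutation named. The label of replicate 2 names 37 embryos and that of replicate 1 names no number. The tables count 6151299 sense-strand reads over all miRNA genes in replicate 1 and 5312642 in replicate 2. Levels are CPM, meaning reads scaled to a common total of these sense-strand reads.

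A microRNA gene is transcribed into a hairpin, from which a duplex of a 5′ arm (5p) and a 3′ arm (3p) is cut. Usually 1 arm is kept as the guide, and its seed, bases 2 to 8, pairs with target mRNAs and represses them. In mir-128 the 3p arm and in mir-138 the 5p arm is known as the main guide, whereas both arms of mir-129 are found in brain. miR-128 is known for dampening the excitability of neurons in mice, miR-138 for limiting the size of dendritic spines in rat neurons, and miR-129 for repressing the mRNA of the potassium channel Kv1.1 in rat neurons.

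The hairpins are shown first because they set which reads can be told apart between copies. Sequences are those of RefSeq on GRCm38.p6, matched by symbol for all 6 genes and at the same places as in GENCODE M21. Each is written 5′ to 3′ in lower case, with capitals for the longest run of bases that a hairpin shares with its other copy.
Mir128-1: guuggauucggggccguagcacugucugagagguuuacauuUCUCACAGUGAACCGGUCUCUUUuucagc
Mir128-2: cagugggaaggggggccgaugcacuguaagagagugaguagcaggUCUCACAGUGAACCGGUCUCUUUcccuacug
Mir129-1: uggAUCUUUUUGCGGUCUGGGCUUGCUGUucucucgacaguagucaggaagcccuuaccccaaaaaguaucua
Mir129-2: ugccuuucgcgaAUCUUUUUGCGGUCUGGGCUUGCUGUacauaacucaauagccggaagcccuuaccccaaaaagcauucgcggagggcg
Mir138-1: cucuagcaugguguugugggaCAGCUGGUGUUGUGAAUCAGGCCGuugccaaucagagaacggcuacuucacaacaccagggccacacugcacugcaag
Mir138-2: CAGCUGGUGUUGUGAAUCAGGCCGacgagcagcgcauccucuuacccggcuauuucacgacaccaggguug

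The mir-128 hairpins shared a run of 23 bases, the mir-129 hairpins 26 and the mir-138 hairpins 24. In a global alignment 71.4% of aligned columns were identical for mir-128, 68.5% for mir-129 and 54.5% for mir-138. Of all stretches of 22 bases in a hairpin, 2 of 49 in Mir128-1 and 2 of 55 in Mir128-2 also occurred in the other copy. The counts were 5 of 52 in Mir129-1, 5 of 69 in Mir129-2, 3 of 78 in Mir138-1 and 3 of 50 in Mir138-2. For each gene the same number of stretches occurred in any other RefSeq hairpin, so among hairpins the overlap lay within the family. Matches elsewhere in the genome were not counted.

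The mature sequences that both copies of a family encode are these, with the seed in capitals.
miR-128-3p: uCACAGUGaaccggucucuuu
miR-129-5p: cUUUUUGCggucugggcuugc
miR-138-5p: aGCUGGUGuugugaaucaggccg
Each of these sequences lies wholly inside the shared run of its family, so a read that equals it matches both hairpins. The run extends past miR-128-3p by 2 bases on the 5′ side and 0 on the 3′ side, and past miR-138-5p by 1 base and 0 bases. A read of either that is 1 base longer at its 3′ end, copied from the hairpin, therefore differs between the copies. Past miR-129-5p the run extends by 2 bases on the 5′ side and 3 on the 3′ side. For miR-138-5p the 5′ extension ends where the RefSeq hairpin of Mir138-2 begins, so the shared bases may reach further.

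The sequences used here hold no 3p entry for Mir129-1, so none is given. The mature sequences listed for 1 copy alone are these, again with the seed in capitals.
miR-128-1-5p: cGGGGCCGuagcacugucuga
miR-128-2-5p: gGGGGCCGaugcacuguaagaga
miR-129-2-3p: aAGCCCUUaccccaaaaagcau
miR-138-1-3p: cGGCUACUucacaacaccaggg
miR-138-2-3p: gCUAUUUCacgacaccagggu
The 5p arms of mir-128 share the seed although their sequences differ. Counted from 1 at the 5′ end of miR-128-1-5p, with its own base first, it differs from the Mir128-2 hairpin by C1G, U9A, A10U, C18A and U19A. The 3p arms of mir-138 carry different seeds, and miR-138-1-3p differs from the Mir138-2 hairpin by C7U and A13G. miR-129-2-3p differs from the Mir129-1 hairpin by C20U alone, outside the seed. A read that starts where miR-129-2-3p starts and ends before base 20 therefore matches both hairpins.

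**Figure D1:**
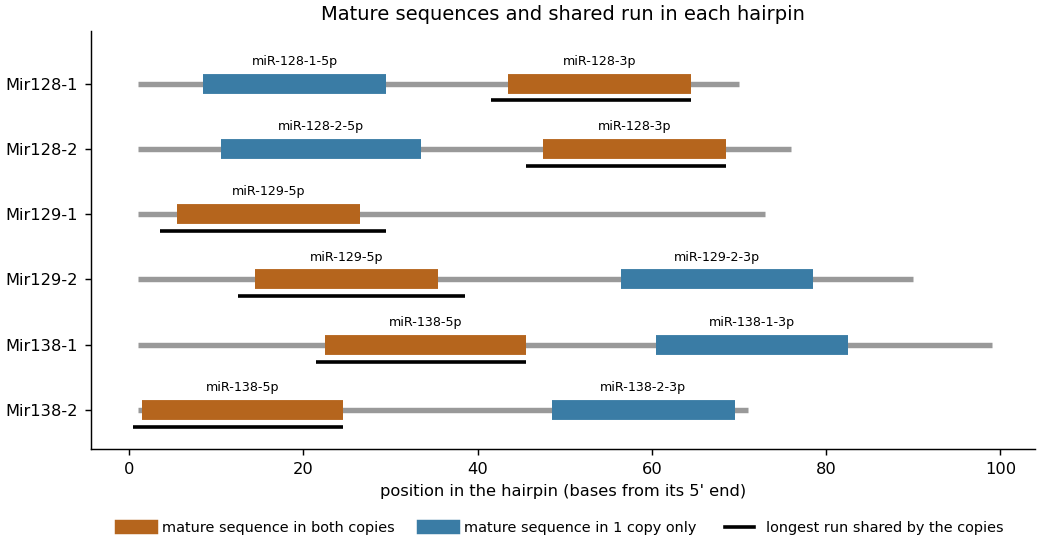
Position of the mature sequences along the 6 hairpins, in bases from the 5′ end of the hairpin. Brown bars are sequences in both copies, blue bars sequences in 1 copy, and black lines the longest run shared by the copies, of 23 bases in mir-128, 26 in mir-129 and 24 in mir-138.

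The copies lie at separate places of mm10 and within different transcripts in GENCODE M21, all on the strand of the miRNA gene. Mir128-1 (chromosome 1, 128202361 to 128202430, plus strand) lies in an intron of R3hdm1, and Mir128-2 (chromosome 9, 112118636 to 112118711, minus strand) in an intron of Arpp21. Both hosts code for proteins with an R3H domain, a fold that binds nucleic acids, and Arpp21 is known as a cAMP-regulated phosphoprotein of the brain. Mir129-1 (chromosome 6, 29022619 to 29022691, plus strand) lies in an exon of the long non-coding RNA gene Gm3294. Mir129-2 (chromosome 2, 94241364 to 94241453, minus strand) lies in an intron of the long non-coding RNA gene Mir670hg. Mir138-1 (chromosome 9, 122682876 to 122682974, plus strand) lies in an exon of Gm47135, annotated as a transcribed pseudogene, and Mir138-2 (chromosome 8, 94324311 to 94324381, plus strand) in an exon of the long non-coding RNA gene C78859. The tables list miRNA genes alone, so the hosts themselves were not measured.

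In 1 host another miRNA gene gave reads. Mir670, which lies 19847 bases from Mir129-2 in Mir670hg, had levels of 106 and 86.0 CPM in replicates 1 and 2, below the 304 and 397 CPM of Mir129-2. Mir670 was thus higher in replicate 1 (log2 ratio 0.30, two-sided exact binomial test, adjusted p = 0.00165) and Mir129-2 lower. The test covers counting error only. Of the 7 annotated transcripts of Mir670hg, 3 span Mir129-2, so both miRNA genes need not share a transcript. Gm23630, also inside Mir670hg, had 0 and 2 reads. For the other 5 genes, the nearest miRNA gene in the tables had 0 reads in both libraries.

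By counted reads, which leave out those that mapped to several places, Mir128-1 was the most abundant of the 6 genes. It held 13425 reads in replicate 1 and 14499 in replicate 2, which is 2182 CPM (95% Poisson interval 2146 to 2220) and 2729 CPM (2685 to 2774). Mir128-2 held 7927 and 8008 reads, 1289 CPM (1260 to 1317) and 1507 CPM (1475 to 1541). Mir128-1 was above Mir128-2 in each library, and the libraries of the pair did not overlap. These intervals cover counting error only, and may be too narrow for that, since reads made by PCR without molecular identifiers are not independent molecules. Of reads from bulk tissue, fewer cells of a type and less of the RNA per cell cannot be told apart.

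The mir-138 genes came next. Mir138-1 held 5361 and 5723 reads in replicates 1 and 2, or 872 CPM (848 to 895) and 1077 CPM (1050 to 1106). Mir138-2 held 3435 and 3580 reads, or 558 CPM (540 to 577) and 674 CPM (652 to 696). The mir-138 copies also did not overlap, with Mir138-1 the higher in each library.

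The mir-129 genes were the lowest and the most unequal by counted reads. Mir129-1 held 482 and 451 reads in replicates 1 and 2, or 78.4 CPM (71.5 to 85.7) and 84.9 CPM (77.2 to 93.1). Mir129-2 held 1872 and 2108 reads, or 304 CPM (291 to 318) and 397 CPM (380 to 414). Here copy 2 was the higher in each library, the reverse of the order in mir-128 and mir-138. Reads opposite all 6 genes were 0 in both libraries. That includes the place of Mir129b, a miRNA gene that M21 annotates opposite Mir129-2, where a count of 0 allows up to 0.488 CPM in replicate 1 and 0.565 CPM in replicate 2 (3 reads).

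**Figure D2:**
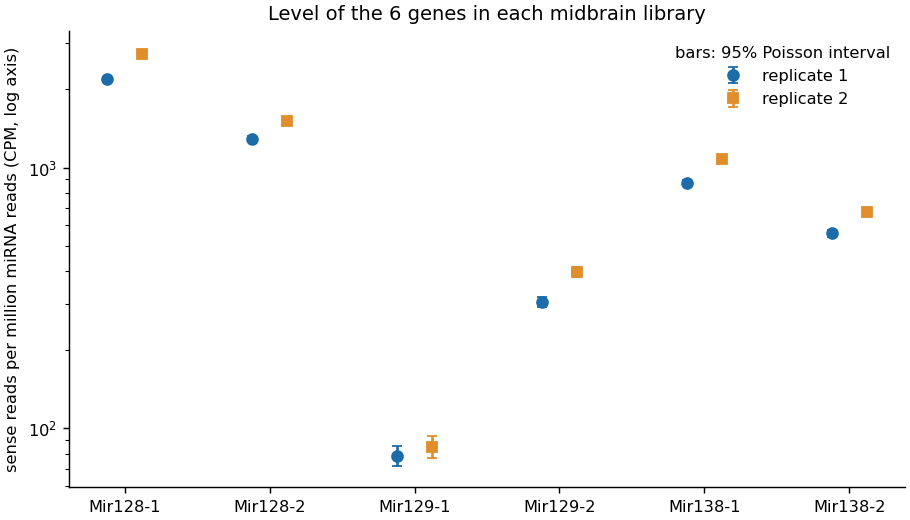
Level of the 6 genes in each library, in CPM on a log axis, with bars for the 95% Poisson interval where they exceed the symbol. Mir128-1 is the highest at 2182 and 2729 CPM in replicates 1 and 2, Mir129-1 the lowest at 78.4 and 84.9 CPM, and all 6 genes are lower in replicate 1.

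The order of the genes by mean CPM was Mir128-1 (2456 ± 387), Mir128-2 (1398 ± 155), Mir138-1 (974 ± 145), Mir138-2 (616 ± 81.6), Mir129-2 (351 ± 65.4) and Mir129-1 (81.6 ± 4.62; SD, n = 2). Each gap between neighbours in this order was 2.46 to 4.11 times the larger of both SDs, and both libraries of the upper gene lay above both of the lower one. With 2 libraries a gene, the smallest two-sided p from an exact permutation test is 0.333, and no such test was made. Divided by hairpin length the order was the same, from 3508 ± 552 CPM per 100 bases for Mir128-1 to 112 ± 6.33 for Mir129-1 (SD, n = 2). On that scale the libraries of the mir-138 copies overlapped, though Mir138-1 was the higher in each library. Mir138-1 had 880 and 1088 CPM per 100 bases in replicates 1 and 2, against 787 and 949 for Mir138-2.

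By mean level of counted reads Mir128-1 ranked 68, Mir128-2 83, Mir138-1 92, Mir138-2 118, Mir129-2 148 and Mir129-1 221 among the 1973 genes. Among the 411 genes with 10 or more reads in both libraries, called detected here, Mir128-1 lay above 83.5% and Mir129-1 above 46.2%. The neighbours in rank were Mir301 (2699 ± 69.3 CPM) above and Mir107 (2408 ± 173) below Mir128-1, and Mir370 (1431 ± 86.8) and Mir467d (1337 ± 0.367) around Mir128-2. Mir300 (1099 ± 22.9) and Mir425 (968 ± 58.5) stood around Mir138-1, and Mir376c (642 ± 56.4) and Mir350 (610 ± 0.593) around Mir138-2. Mir363 (355 ± 87.0) and Mir665 (349 ± 4.93) stood around Mir129-2, and Mir539 (87.3 ± 1.14) and Gm23935 (80.8 ± 54.5) around Mir129-1. The distance to these neighbours, as mean log2(CPM + 1), was at most 0.19 in size over the 2 libraries. Mir539 lay 5.66 CPM above Mir129-1, beyond the SD of either gene, and each of the other 11 neighbours lay within the larger SD of the pair.

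In each family the same copy led in both libraries. Copy 1 held 62.9% of the mir-128 reads in replicate 1, with a 95% Wilson interval of 62.2 to 63.5, and 64.4% (63.8 to 65.0) in replicate 2, a mean of 63.6% ± 1.09 (SD, n = 2). Of the mir-129 reads it held 20.5% (18.9 to 22.2) and 17.6% (16.2 to 19.1), a mean of 19.0% ± 2.02. Of the mir-138 reads it held 60.9% (59.9 to 62.0) and 61.5% (60.5 to 62.5), a mean of 61.2% ± 0.403. No interval held 50%. As log2 of copy 1 over copy 2, the means were 0.81 ± 0.07 for mir-128, -2.09 ± 0.19 for mir-129 and 0.66 ± 0.02 for mir-138. In linear terms copy 1 was 1.75-fold copy 2 in mir-128 and 1.58-fold in mir-138, and copy 2 was 4.26-fold copy 1 in mir-129. These shares and folds describe the reads that were assigned to a copy, and reads equal to the shared mature sequences match both copies. Whether the assigned reads favour 1 copy was not tested, so the folds are not taken as the relative output of the genes.

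Whether the libraries divided a family alike was tested with Fisher's exact test over the 22 families that have exactly 2 numbered copies in the tables and at least 10 reads in each library. It compares the libraries and covers counting error only. Of the 22 families, 31.8% were called at an adjusted p below 0.05 (Benjamini-Hochberg over the 22). mir-128 was called, with a share of copy 1 that differed by -1.55 percentage points, replicate 1 minus replicate 2 (two-sided exact test, adjusted p = 0.00578). mir-129 was called by a narrow margin, at 2.85 points (adjusted p = 0.0439). mir-138 did not pass, at -0.570 points (adjusted p = 0.686). The share of called families among the 3 was therefore 2 of 3, and the differences in log2 of copy 1 over copy 2 were 0.10, 0.27 and 0.03 in size. The median size over the other 19 families was 0.20, with a range of 0.02 to 2.23.

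Against these 19 families the 3 neuronal ones were neither the most even nor the most uneven. The larger copy held 63.6% in mir-128, 81.0% in mir-129 and 61.2% in mir-138, while the other families ran from 54.1% to 99.3% with a median of 76.2%. By counted reads of both copies together, mir-128 stood at 3854 ± 541 CPM, mir-138 at 1591 ± 227 and mir-129 at 432 ± 70.0 (SD, n = 2). These were ranks 3, 5 and 13 of the 22 families. Reads that mapped to several places are left out of the sums, and a read equal to a mature sequence shared by copies matches each copy. The ranks are therefore of counted reads, not of amounts of the mature miRNA. The other families had a median of 502 CPM. The mir-7 family, another neuronal microRNA, divided like mir-128, with copy 1 at 64.0% in replicate 1 and 62.4% in replicate 2.

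**Figure D3:**
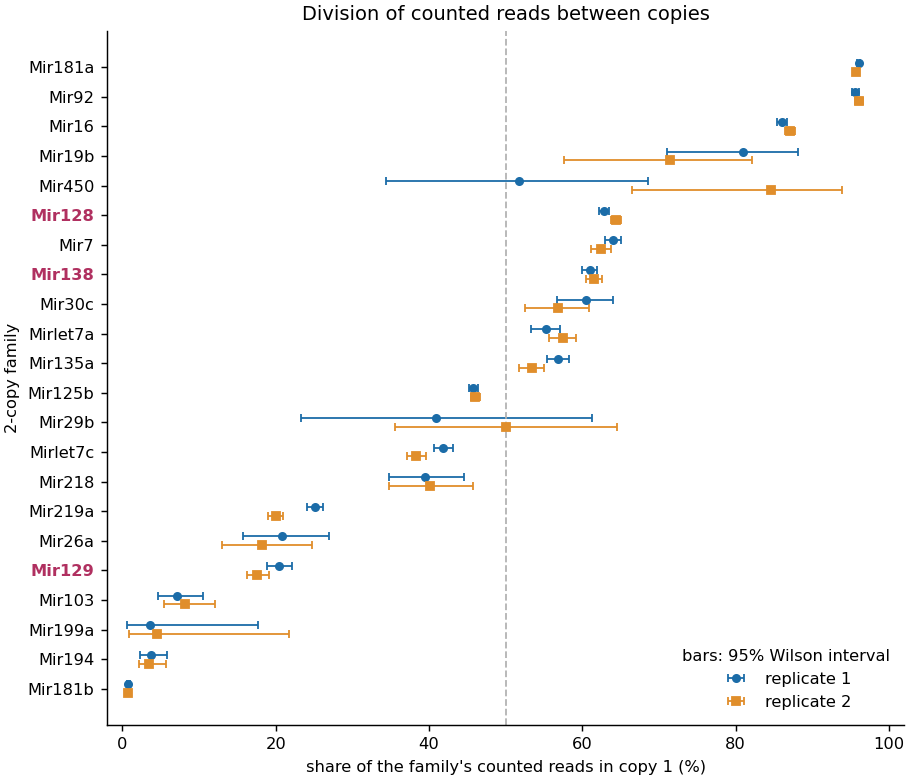
Share of copy 1 among the counted reads of each of 22 families with 2 numbered copies, in percent, with 95% Wilson intervals for each library and a dashed line at 50%. Mir128 and Mir138 (red) lie near 60% and Mir129 near 20%, within a range of families from Mir181b near 0% to Mir181a and Mir92 near 96%.

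All 6 genes were lower in replicate 1 than in replicate 2. With 0.5 reads added to every count, log2 of replicate 1 over replicate 2 was -0.32 for Mir128-1, -0.23 for Mir128-2, -0.31 for Mir138-1, -0.27 for Mir138-2, -0.38 for Mir129-2 and -0.12 for Mir129-1. Over all detected genes 40.1% had a ratio below 0, the median ratio was 0.06, and the median size was 0.18 against 0.29 for the 6 genes.

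A two-sided exact binomial test of each gene's reads, adjusted by Benjamini-Hochberg over the 411 detected genes, compared the libraries. It called 47.4% of detected genes in either direction, 29.2% as higher and 18.2% as lower in replicate 1. That split depends on the scaling, at 120 genes higher and 75 lower here, 97 and 88 with TMM factors, and 93 and 94 with RLE size factors, with 5 of the 6 genes called under each. Of the 6 genes 5 were called lower in replicate 1 and 0 higher, with adjusted p-values from 1.36e-76 for Mir128-1 to 1.92e-14 for Mir138-2. Mir129-1, the gene with the fewest reads, did not pass (adjusted p = 0.351). When edgeR's exact test was run with a set biological coefficient of variation (BCV) of 0.2, a spread between pools that was assumed and not measured, 0 of the 6 were called, each with an adjusted p of 1, and 0 had an unadjusted p below 0.05. That test called 1.46% of detected genes. The differences in these genes were 1.08-fold to 1.30-fold. With reads taken as independent, these differences are thus beyond counting error for 5 genes, and they are within a spread of the size assumed.

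**Figure D4:**
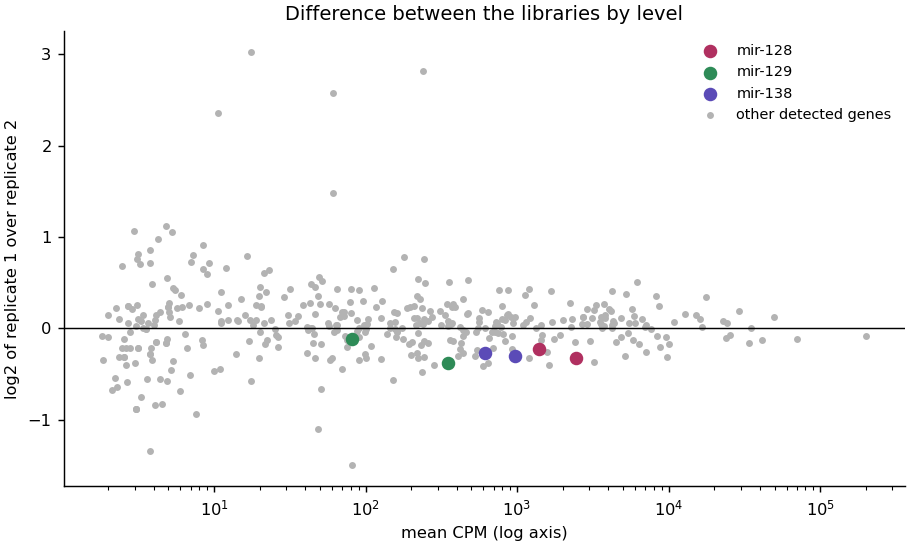
Log2 ratio of replicate 1 over replicate 2 against mean CPM (log axis) for the 411 detected genes, with the genes of mir-128, mir-129 and mir-138 coloured. All 6 coloured points lie below 0, between -0.12 and -0.38, inside the cloud of other genes.

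The libraries also differed in markers of other cells. The 6 listed epithelial genes Mir200a, Mir200b, Mir200c, Mir141, Mir429 and Mir203 were all called higher in replicate 1, with a median log2 ratio of 2.47. Mir203, the most abundant of them, had a ratio of 0.20 and the other 5 had ratios of 1.48 to 3.03. With the fixed BCV 5 of the 6 were called. Their summed level, of which Mir203 is the larger part in replicate 2, was 1290 and 662 CPM in replicates 1 and 2. The choroid plexus miRNA Mir204 stood at 2444 and 2016 CPM, the endothelial Mir126a at 23067 and 24810, the mural and mesenchymal list at 6431 and 6151, and the erythroid list at 196 and 246, with Mir451a at a log2 ratio of -0.56 and Mir144 at 0.18. The myeloid Mir223 stood at 135 and 140 CPM, the muscle list at 35.9 and 33.1, and the Hox list of tissue behind the midbrain at 1189 and 1217, with Mir196a-1 at 0 reads in both. In the Hox list Mir10a and Mir10b hold most of the sum, and Mir196b was called higher in replicate 1 (log2 ratio 0.79, exact binomial test, adjusted p = 0.000634), while 2 genes of the list were called lower with TMM or RLE scaling and 0 here. Their part in the lower level of mir-128, mir-129 and mir-138 in replicate 1 was not tested. Of the brain markers listed for a check of the tissue label, Mir149, Mir137 and Mir153 were abundant (25498 ± 892, 15108 ± 1072 and 5868 ± 388 CPM), Mir9-3 stood at 405 ± 59.6 and Mir124a-1 at 5.04 ± 0.466 CPM. Mir9-3 and Mir124a-1 have further copies in the genome, and their levels leave out reads that mapped to several places. A low count of either is therefore not read as a low amount of the mature miRNA.

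Beside other neuronal miRNA genes, the 6 were intermediate by their median level of 795 CPM, against 108 CPM over all detected genes. Reads at several places are left out of these levels, and a read equal to a mature sequence shared by copies matches each of them. Multi-copy and single-copy genes are thus compared by counted reads, not by amounts of the mature miRNA. Of the other multi-copy neuronal genes (13 of 14 analysed, from mir-9, mir-124, mir-7, mir-135a, mir-218 and mir-219a) 11 were detected, with a median of 267 CPM over the 13. The highest 4 were Mir219a-2, of the oligodendrocyte lineage, at 923 ± 104 CPM, Mir7-1 at 755 ± 154, Mir7-2 at 437 ± 69.5 and Mir9-3 at 405 ± 59.6. With mir-219a in it, this list is not of neuronal genes alone, and its median is the level of Mir219a-1. Mir128-1, Mir128-2 and Mir138-1 were above all 13 by mean CPM. The libraries of Mir138-1 (872 and 1077 CPM in replicates 1 and 2) and Mir219a-2 (850 and 996 CPM) overlapped, however. Of the 14 single-copy neuronal genes all 14 were detected, with a median of 1203 CPM, led by Mir149, Mir137, Mir135b (12829 ± 996) and Mir153.

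The neuronal lists did not share a direction between the libraries. Of the 11 detected multi-copy genes 4 were called higher in replicate 1, 2 were called lower and 5 did not pass, with a median log2 ratio of 0.13, beside 29.2% and 18.2% of all detected genes called higher and lower. Of the 14 single-copy genes 6 were called higher, 6 lower and 2 did not pass, with a median of 0.07. At the fixed BCV 0 genes of both lists were called. Genes called lower in replicate 1, like the copies of mir-128 and mir-138, included Mir132 (-0.32) and Mir212 (-0.32), which neuronal activity is known to induce, Mir383 (-0.30), Mir9-3 (-0.30) and Mir346 (-0.48). Genes called higher included Mir7-1 (0.42), Mir7-2 (0.33), Mir708 (0.19) and Mir137 (0.14). These examples were chosen after their values were seen.

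**Figure D5:**
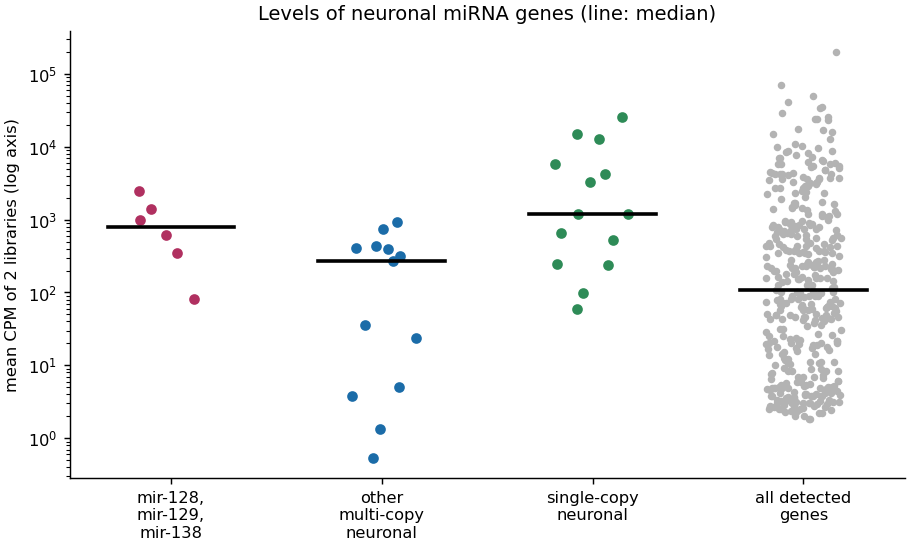
Mean CPM of 2 libraries (log axis) for the 6 genes of mir-128, mir-129 and mir-138, 13 other multi-copy neuronal genes, 14 single-copy neuronal genes and all 411 detected genes, with a line at each median. The medians are 795, 267, 1203 and 108 CPM in that order. Reads that mapped to several places are left out.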

How the data were processed

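Small-RNA libraries of 1 group, with 2 biological replicates, were analysed. Per the labels and the deposited description, the authors' tables hold raw counts of reads per miRNA gene on mm10 with GENCODE M4. The aligner and counter are not given in the sources used here. The tables list reads at several places in a row of their own, at 35.3% and 36.5% of reads in replicates 1 and 2. Unmapped reads (15.6% and 15.2%) and reads in no gene (3.99% and 4.14%) also stayed out of library sizes and tests, and the sense counts are 45.1% and 44.2% of all reads.

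Column 3, the sense strand, was divided by its sum to give CPM. Identifiers were matched without version to GENCODE M21 (1894 of 1973 genes). Of the 6 genes, 3 carry another version there, so their limits in M4 may differ. The chi-square between the tables was 85.8 per degree of freedom over 410, so they were counted as 2 samples. Nothing in the labels says that the pools share embryos. Fixed-BCV tests used edgeR 4.0.16 in R 4.3.3, and other tests scipy 1.17.1 in Python 3.11.15, with pandas 2.3.3, numpy 2.4.6, biopython 1.88 and matplotlib 3.10.9. The binomial and Fisher tests were tested on simulated data. Alternatives were TMM and RLE scaling, either strand, other minimums, other added reads, hairpin length and each library alone. The members and lists were chosen with earlier results of these data known. By rule, named genes are the members, their hosts, their neighbours in level, and of each list the 4 highest and any gene at 0 reads; others, such as single-copy genes outside the 4 highest, single markers, Mir99a and the miRNA genes in Mir670hg, were chosen after their values were seen.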

Additional observations from a re-analysis of the deposited data

Results flagged for a closer look

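Reads that mapped to several places were listed without a gene, at 4816290 in replicate 1 and 4391928 in replicate 2. The 6 genes together held 32502 and 34369 counted reads. How many reads of miR-128-3p, miR-129-5p or miR-138-5p are among those at several places was not tested, since the tables do not list them by gene.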

How the results depend on the processing

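Of 146 recomputed values 114 kept their side of the threshold or moved by less than the spread, and 0 changed sign. The log2 ratios of the 6 genes kept their sign in all 42 recomputations. Of the alternatives run on the ratios of the 6 genes, edgeR's exact test with a fixed BCV of 0.2 alone ended calls, those of 5 genes. It left 0 of the 6 genes called, 5 genes of the whole table higher in replicate 1 (120 by the binomial test) and 1 lower (75). Dividing by hairpin length moved the share of copy 1 to 65.5% in mir-128, 22.5% in mir-129 and 53.1% in mir-138. With each library alone the share was 62.9% to 64.4%, 17.6% to 20.5% and 60.9% to 61.5%. The differences in copy share between libraries kept their calls in the 3 families, while 6 of all 2-copy families were called, against 7, with a minimum of 100 reads. Leaving Mir99a, the most abundant gene, out of the library size raised the levels of all 6 genes, that of Mir128-1 to 3080 CPM. Percentiles depend on the genes ranked: Mir129-1 stood at 70.5 among genes with a read and at 28.5 among those with 50 or more reads in both libraries. Depth limits Mir129-1 most, at 451 reads in replicate 2. No paired analysis was possible because there is 1 group.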

Other observations

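Across the 21 families of 2 numbered copies with both hairpins in RefSeq, the longest run shared by the copies spanned 22 to 28 bases, with 23 in mir-128, 24 in mir-138 and 26 in mir-129. Across these families Spearman's rho between the length of the run and the summed CPM was -0.24, and Pearson's r with log2 CPM was -0.26. This is a description over families that share libraries and depth, and the relation is weak. A read wholly inside the shared run matches both copies, and reads at several places are left out of the summed CPM. The length of the run and the summed CPM are therefore not independent measures. Families with the same run differed widely in summed CPM. mir-128, mir-16, let-7a and let-7c shared 23 bases and stood at 3854, 1811, 502 and 1072 CPM, and mir-129 and mir-181b shared 26 bases and stood at 432 and 1212 CPM.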
